A study of Homo sapiens with 24 samples.

Results

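The genes described here are 40 genes that belong to the transcriptional response to low oxygen or to the lower steps of glycolysis. They were selected by name, as the rows of the gene tables whose Ensembl identifier carries one of the 40 symbols, and all 40 had a row among the 33382 genes listed. Of these, 29 are components or targets of the hypoxia-inducible factor (HIF) system and 11 encode the glycolytic enzymes from glucose-6-phosphate isomerase to lactate dehydrogenase. All 40 had enough counts to be tested, among 15302 genes in all.

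RNA-seq was performed on SW480 and SW620, 2 human colorectal cancer lines. Cells of either line had been transduced with lentivirus for Tet2CD, the catalytic domain of the dioxygenase TET2, which oxidises 5-methylcytosine, or with the empty lentiviral vector. Cells of each line and construct received 4 ng/ml TGFB1, a cytokine that signals through SMAD proteins, 1 µM RepSox, which blocks the type I TGF-beta receptor ALK5, or DMSO as the vehicle, each for 24 h. All 12 groups were selected with 5 µg/ml puromycin, and each had 2 libraries, 24 in all. The culture notes name a high-glucose medium and no low-oxygen step. The labels do not say whether the 2 libraries of a group were grown apart, so the p-values measure only a spread between libraries that may be technical.

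HIF is a heterodimer of an oxygen-regulated alpha subunit, HIF1A or EPAS1 (HIF-2 alpha), and the constant partner ARNT. In oxygen the prolyl hydroxylases EGLN1 and EGLN3 mark the alpha subunit for VHL, which leads it to degradation. This control acts on the protein, so an alpha subunit's transcript level does not give its activity. In low oxygen the dimer binds hypoxia response elements, which hold the core ACGTG or GCGTG, and raises genes for angiogenesis, mitochondrial turnover, collagen modification and glycolysis. Lower glycolysis turns hexose phosphate into pyruvate, which LDHA reduces to lactate.

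RefSeq (GRCh38.p14) promoter windows were found for 35 of the 40 genes, with BNIP3L, HILPDA, NDRG1, VEGFA and VHL not matched. The 250 bases before the start site were searched for the letters ACGTG on both strands (ACGTG or CACGT). At least 1 window of 24 of the 35 genes (68.6%) held them, against 21.7% of the 27305 genes in the table. Per window, the letters stood in 26 of 47 windows of these genes and in 18.5% of all 35116 windows. The palindrome CACGTG, the E-box that MYC and other factors read, contains the same core and was present in 11 of the 47 windows (23.4%) and in 6.3% of all windows. GCGTG (or CACGC) was in 22 of the 47 windows (46.8%) and in 32.2% of all windows. Below are the 5 promoters of genes that passed the test as higher with TGFB1 in both lines and hold ACGTG, shown as the genes of the result common to both lines in which the letters can be seen. They are 5 of the 10 genes that rose in both. They run 5′ to 3′ on the gene's strand and end at the base before the start site, with ACGTG or CACGT in capitals.
AK4 (chr1:65147302-65147551, plus strand): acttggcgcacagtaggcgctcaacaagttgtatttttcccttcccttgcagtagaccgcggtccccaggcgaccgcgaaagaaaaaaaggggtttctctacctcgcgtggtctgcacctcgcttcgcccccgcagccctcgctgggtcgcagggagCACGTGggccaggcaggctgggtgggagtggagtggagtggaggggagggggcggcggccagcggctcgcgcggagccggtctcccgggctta
P4HA1 (chr10:73096867-73097116, minus strand): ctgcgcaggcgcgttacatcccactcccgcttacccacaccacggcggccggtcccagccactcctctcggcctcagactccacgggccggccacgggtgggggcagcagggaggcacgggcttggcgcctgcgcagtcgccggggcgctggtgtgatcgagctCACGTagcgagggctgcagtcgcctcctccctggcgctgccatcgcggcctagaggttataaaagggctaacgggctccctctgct
PLOD2 (chr3:146161185-146161434, minus strand): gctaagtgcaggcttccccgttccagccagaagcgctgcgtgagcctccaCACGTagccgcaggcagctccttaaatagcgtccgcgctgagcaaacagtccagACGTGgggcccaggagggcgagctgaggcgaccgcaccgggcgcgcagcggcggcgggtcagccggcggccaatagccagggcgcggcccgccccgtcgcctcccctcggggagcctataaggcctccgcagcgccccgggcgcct
MIR210HG (chr11:568458-568707, minus strand): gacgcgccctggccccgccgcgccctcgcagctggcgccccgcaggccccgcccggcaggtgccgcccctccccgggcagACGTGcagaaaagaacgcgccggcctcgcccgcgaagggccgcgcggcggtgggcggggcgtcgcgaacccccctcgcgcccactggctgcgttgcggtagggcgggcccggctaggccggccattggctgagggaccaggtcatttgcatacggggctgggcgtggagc
LDHA (chr11:18394313-18394562, plus strand): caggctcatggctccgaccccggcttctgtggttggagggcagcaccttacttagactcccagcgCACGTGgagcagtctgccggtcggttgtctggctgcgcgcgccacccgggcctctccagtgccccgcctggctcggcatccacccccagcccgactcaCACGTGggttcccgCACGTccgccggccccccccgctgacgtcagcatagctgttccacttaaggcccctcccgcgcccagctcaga
PLOD2 had 2 separate stretches and LDHA 3, of which 2 are the palindrome CACGTG, while MIR210HG and P4HA1 had 1 each outside a palindrome and that of AK4 was a palindrome. The 2 other genes of this kind with a window, EGLN3 and P4HA2, had no ACGTG in these 250 bases. The letters were thus in 5 of the 7 genes of this kind with a window, and in 24 of all 35. The 40 genes were chosen by name as HIF and glycolysis genes, so these shares are not a result about TGFB1. A match is a description of the letters and not of binding.

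As a check on the libraries, TET2 stood at 207 to 2821 CPM (counts scaled for library size, here by the total alone) in the 12 Tet2CD libraries and at 10.3 to 25.2 CPM in the 12 vector libraries, with reads of the construct and of the endogenous gene counted together. The total expected count, RSEM's estimate of the fragments assigned to genes, ran from 2146123 to 4410567 per library. Of 9 colon epithelial markers 7 were above 0 TPM (a level scaled for gene length and library) in every library, from CDX2 at 5.43 to 143 TPM and VIL1 at 19.3 to 325 TPM up to KRT8 and KRT18 at 2271 TPM or more, whereas CDX1 and KRT20 reached at most 0.70 and 4.55 TPM. The summed TPM of 5 blood markers, mostly CD68, was 1.34 to 8.63 in SW480 and 15.66 to 46.28 in SW620, with HBB at 0 in every library. That of 4 endothelial markers was 0.56 to 7.87 in SW480 and 2.42 to 11.56 in SW620, with KDR at 0 in every library. That of 5 fibroblast markers was 3.52 to 13.67 in SW480 and 12.84 to 31.97 in SW620. With TGFB1 the fibroblast sum was 20.02 to 31.97, against 20.69 to 23.17 with DMSO in SW620, and 8.25 to 13.67 against 3.54 to 11.26 with DMSO in SW480, and its part in the TGFB1 results was not tested. The 3 SW480 Tet2CD libraries numbered replicate 1, 1 for each treatment, stood apart from their partners. With DMSO, TGFB1 and RepSox they had 846, 735 and 207 CPM of TET2, and their replicate 2 partners 1973, 2821 and 1790 CPM, and the part of this difference in the Tet2CD values was not tested. Ribosomal protein genes took 10.86% to 16.13% of their counts, against 6.18% to 10.02% in the other 21 libraries, and their count-weighted GC content was 52.46% to 53.59% against 49.55% to 51.73%. The SW480 Tet2CD calls averaged over treatments are given with and without them.

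In vector cells with DMSO the common glycolytic isozyme genes were the most abundant of the 40, except that CA9 stood above PGAM1 in SW620. GAPDH, the glyceraldehyde-phosphate dehydrogenase gene, averaged 8649 TPM in SW480 and 8253 TPM in SW620, followed in both lines by LDHA (2306 and 2662 TPM), ENO1 (1914 and 2405 TPM) and TPI1 (1911 and 2113 TPM). The brain-type isozyme genes were far lower than their partners. ALDOC made up 1.75% to 4.16% of the summed TPM of ALDOA and ALDOC in the 12 SW480 libraries and 2.24% to 6.71% in the 12 SW620 libraries. Among the HIF genes NDRG1, a stress-responsive differentiation gene, was the highest in SW480 at 294 TPM, and CA9, the cell-surface carbonic anhydrase, was the highest in SW620 at 296 TPM. Among the lowest were BNIP3, an outer-membrane mitophagy receptor gene, at 0.32 to 3.16 TPM over all 24 libraries, and ANGPTL4, at 0 to 8.52 TPM. GENCODE 29 names 62 pseudogenes of GAPDH, 39 of BNIP3, 13 of PGAM1 and 6 of LDHA, and none of the 145 such copies of these genes has a row in the tables, so the counts of these genes are uncertain by any reads of the copies. EGLN3, P4HA2 and CA9 overlap SPTSSA, PDLIM4 and ARHGEF39, and whether strand was used in the counting is not given here, so reads from these pairs may not be separable. The heat map of the 40 genes gives the level of each in every library relative to its own mean.

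**Figure D1:**
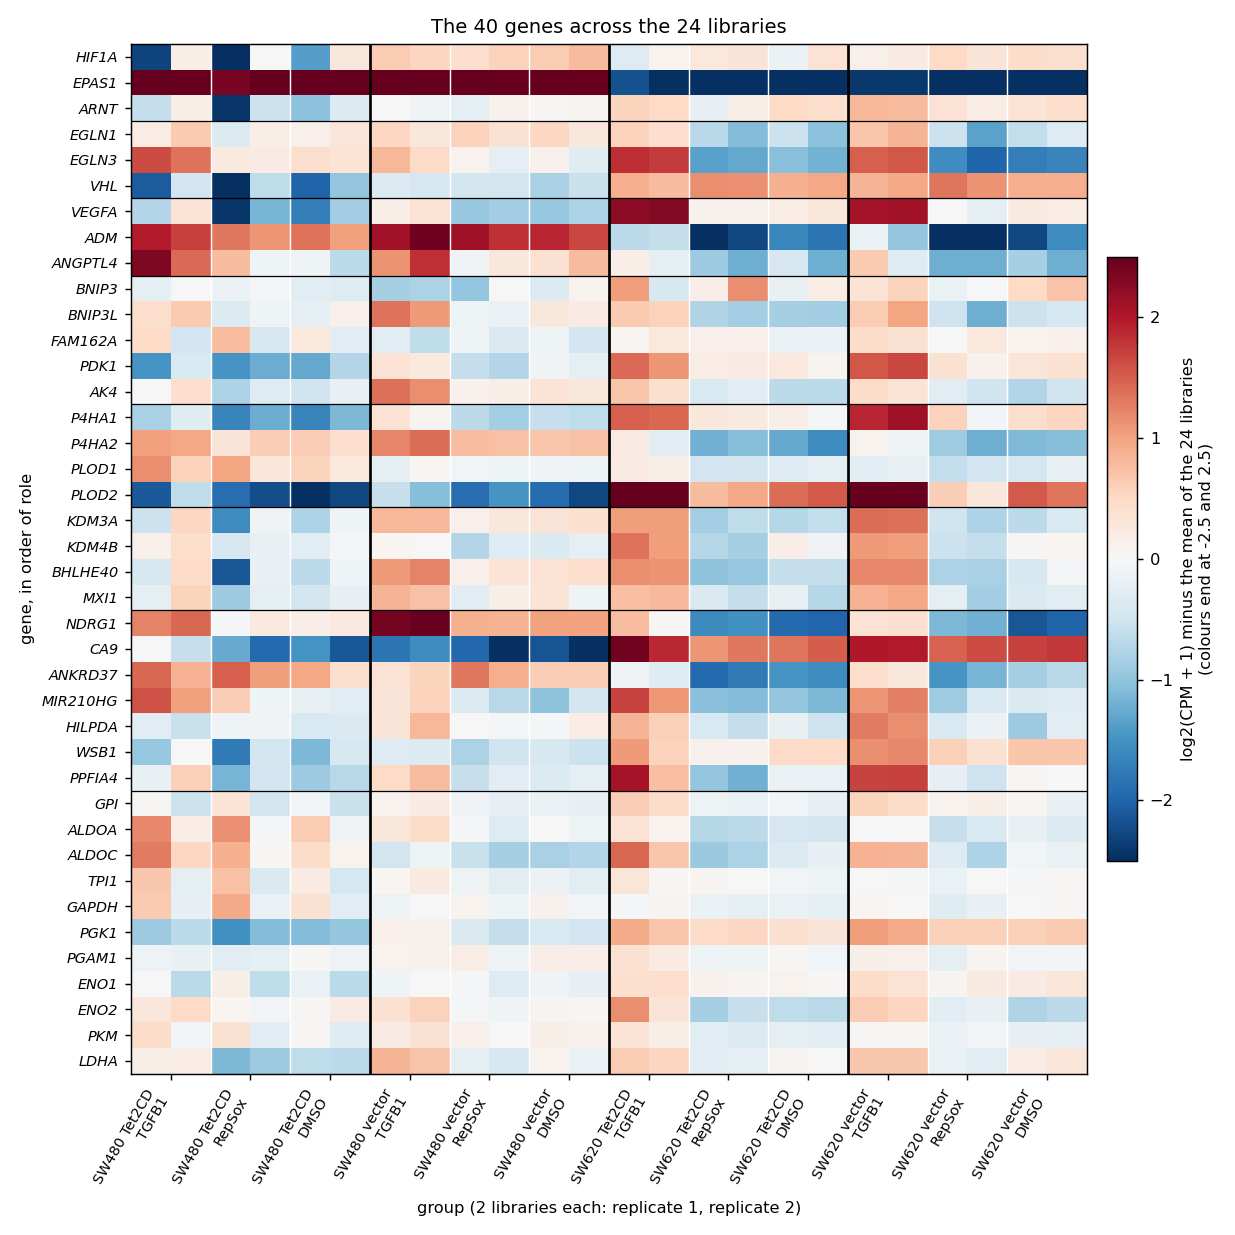
Level of each of the 40 genes (rows, in order of role, separated by black lines) in the 24 libraries (columns, 2 adjacent columns per group, black lines between line and construct), as log2(CPM + 1) minus the gene's mean over the 24 libraries. Red is above and blue below that mean, and values past the ends of the colour bar take its end colours. The SW620 TGFB1 columns are red for most HIF genes, and the SW480 Tet2CD replicate 1 columns are bluest for HIF1A, ARNT and VHL.

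TGFB1 against DMSO was compared in each line over both constructs (4 against 4 libraries). In SW620, 26 of the 40 genes rose and none fell. They included the prolyl hydroxylase gene EGLN3 (log2 fold change 3.13, SE 0.15), the stress-response gene NDRG1 (2.46, SE 0.14), the miR-210 host transcript MIR210HG (2.14, SE 0.22) and the angiogenic factor gene VEGFA (1.96, SE 0.24). In SW480, 11 rose and none fell, with NDRG1 (1.28, SE 0.13), MIR210HG (1.45, SE 0.22) and LDHA (0.81, SE 0.10) among them. The test was edgeR's quasi-likelihood test, with p-values adjusted by Benjamini-Hochberg over 15302 genes and a threshold of 0.05. Over all genes tested 8.31% rose and 7.27% fell in SW620, and 0.732% rose and 0.314% fell in SW480. The median log2 fold change of the 40 was 1.20 in SW620, against 0.01 for all genes, and 0.42 in SW480, against 0.02. In bulk RNA, fewer cells that express a gene and less RNA per cell cannot be told apart. The 10 genes that rose in both lines were EGLN3, VEGFA, BNIP3L, AK4, P4HA1, P4HA2, PLOD2, NDRG1, MIR210HG and LDHA, while CA9 was called in SW480 alone.

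Libraries with TGFB1 and DMSO did not overlap within either construct, with TGFB1 higher, for 34 of the 40 genes in SW620 and 18 in SW480. Over all genes tested this was so for 20.7% in SW620 and 5.02% in SW480. The opposite non-overlap was seen for none of the 40 in either line, against 20.8% and 4.29% of all genes. Of the 26 calls in SW620, 23 held whichever 1 of its 8 TGFB1 and DMSO libraries was left out, the exceptions being ANGPTL4, GPI and PGK1. Of the 11 in SW480, NDRG1, EGLN3, LDHA and MIR210HG held throughout. The SW480 count was 19 without the 3 libraries that stood apart, where 3.19% of all genes rose, with all 11 retained, and 0 when only the 12 SW480 libraries were fitted, a fit that called no gene at all. It was 5 without Tet2CD DMSO replicate 1, vector DMSO replicate 1 or vector TGFB1 replicate 1, 7 without Tet2CD TGFB1 replicate 2 or vector TGFB1 replicate 2, and 4 without vector DMSO replicate 2.

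**Figure D2:**
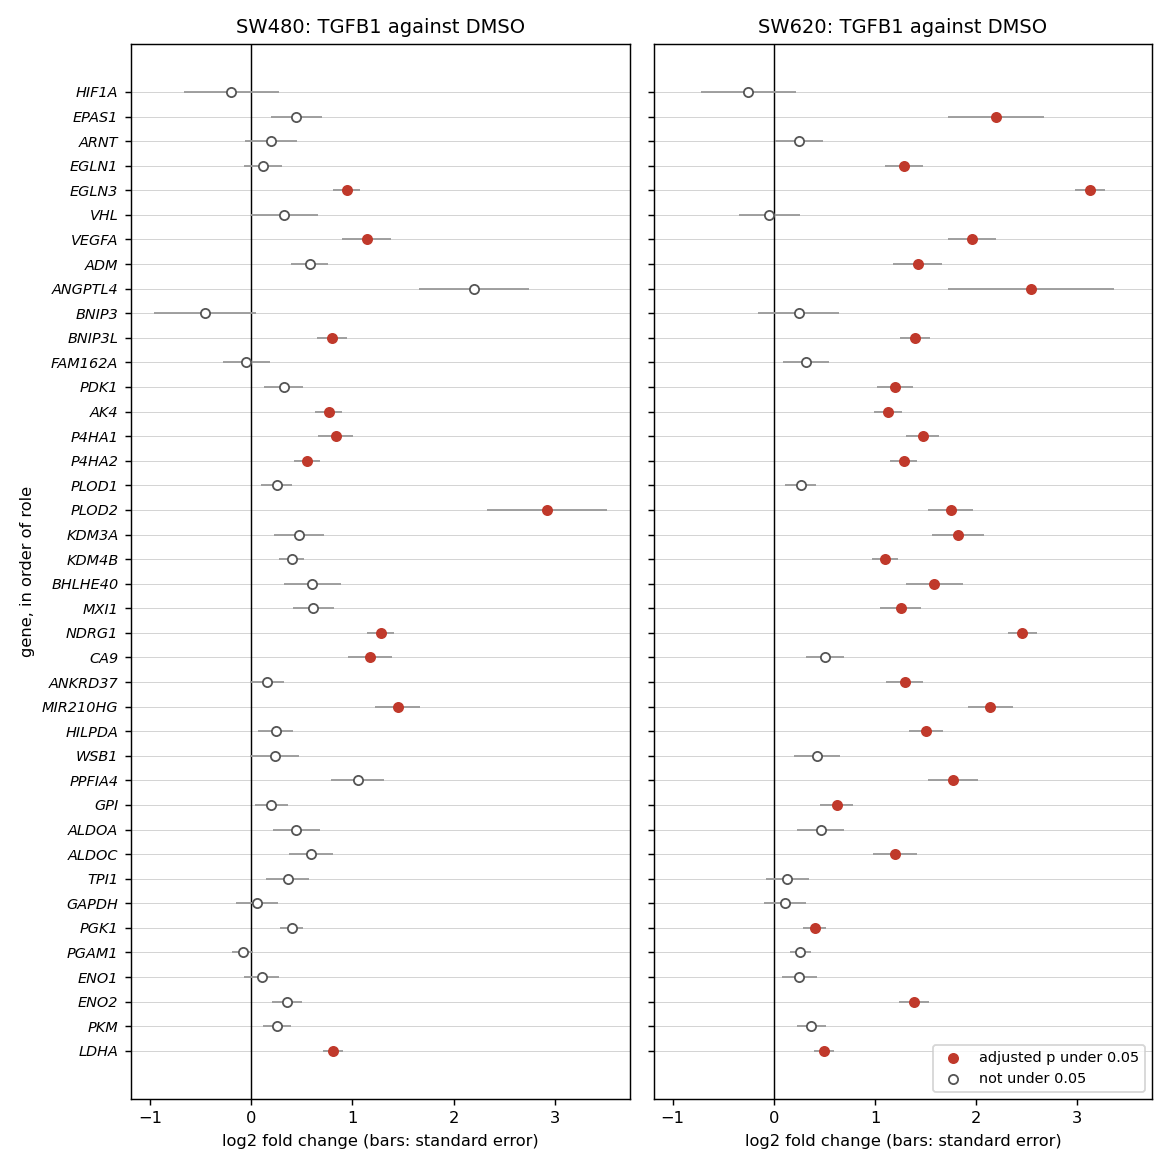
Log2 fold change of TGFB1 over DMSO for each of the 40 genes (rows, in order of role), in SW480 (left) and SW620 (right), 4 against 4 libraries in each. Bars are standard errors, filled points have an adjusted p under 0.05 and open points do not. In SW620 26 points are filled and in SW480 11, all to the right of 0.

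The HIF subunit genes did not move together. HIF1A (ENSG00000100644, chromosome 14, 61695513 to 61748259, plus strand) had 74.7 and 99.6 CPM in SW620 Tet2CD cells with TGFB1 and 103 and 109 CPM in vector cells with TGFB1, against 84.4 and 121 CPM and 130 and 124 CPM in the same cells with DMSO. These ranges overlapped in Tet2CD cells, and the log2 fold change was -0.25 (SE 0.47, adjusted p = 0.78). In SW480 it was -0.20 (SE 0.47, adjusted p = 0.928). EPAS1 (ENSG00000116016, chromosome 2, 46293667 to 46386703, plus strand) had 6.52 and 4.75 CPM in SW620 Tet2CD cells and 5.39 and 5.40 CPM in vector cells with TGFB1, against 1.74 and 0.933 CPM and 0.619 and 1.47 CPM with DMSO. It was 4.58-fold higher from a very low level (2.20, SE 0.47, adjusted p = 0.00446). In SW480, where it was abundant, the difference was 0.45 (SE 0.25, adjusted p = 0.5), although the 2 TGFB1 libraries of vector cells (642 and 695 CPM) lay above the 2 with DMSO (369.7 and 437 CPM). Without the 3 libraries that stood apart the value was 0.48 with an adjusted p = 0.0388. ARNT had values of 0.25 in SW620 and 0.20 in SW480 and was not called in either line.

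Among the genes that sense oxygen or degrade HIF alpha, EGLN3 had the largest rise of the 40 in SW620. EGLN3 (ENSG00000129521, chromosome 14, 33924231 to 34462774, minus strand) had 172 and 161 CPM in Tet2CD cells and 135 and 139.9 CPM in vector cells with TGFB1, against 22.6 and 20.3 CPM and 13.6 and 14.4 CPM with DMSO. All 4 TGFB1 libraries stood far above the DMSO libraries, an 8.73-fold rise (adjusted p = 1.51e-09). In SW480 it had 149.5 and 122 CPM in Tet2CD cells and 85.5 and 66.4 CPM in vector cells with TGFB1, against 64.7 and 60.3 CPM and 50.8 and 38.4 CPM with DMSO, a 1.92-fold rise (0.94, SE 0.13, adjusted p = 0.0027). EGLN1, the main oxygen sensor of the family, rose in SW620 (1.29, SE 0.19) and had a value of 0.12 in SW480. VHL, the substrate receptor of the ubiquitin ligase, was not called in either line (-0.04 and 0.33).

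All 3 secreted factor genes rose in SW620. VEGFA (ENSG00000112715, chromosome 6, 43770184 to 43786487, plus strand) had 454 and 469.8 CPM in Tet2CD cells and 404 and 413 CPM in vector cells with TGFB1, against 108 and 117 CPM and 112 and 109 CPM with DMSO. The groups were widely separated, a 3.89-fold rise (adjusted p = 3.94e-05). In SW480 it had 56.7 and 122 CPM in Tet2CD cells and 107 and 123 CPM in vector cells with TGFB1, against 28.6 and 51.9 CPM and 49.0 and 54.8 CPM with DMSO. Each construct separated there too, narrowly in Tet2CD cells, where the lower TGFB1 library was replicate 1. The rise was 2.21-fold (1.14, SE 0.24, adjusted p = 0.0268). ADM, the vasodilator peptide adrenomedullin, rose in SW620 (1.42, SE 0.24) from below 5 CPM and had a value of 0.58 (adjusted p = 0.153) in SW480. ANGPTL4, a lipoprotein lipase inhibitor, had 24 counts over the 4 SW620 TGFB1 libraries and 4 over the 4 with DMSO, a ratio of 5.92 with a 95% counting interval of 2.03 to 23.5 (adjusted p = 0.0471). It was not detected in 2 of these DMSO libraries and stood at 0.745 and 0.309 CPM in the others, against 0.9 to 2.69 CPM with TGFB1. It was called in 2 of the 8 fits that leave out 1 of these libraries, with a log2 value of 2.02 to 4.25 over the 8.

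Of the 5 mitochondrial genes, BNIP3L, PDK1 and AK4 rose in SW620, and BNIP3L and AK4 in SW480. BNIP3L, a mitophagy receptor, rose by 1.40 (SE 0.15) and 0.80 (SE 0.15) in SW620 and SW480. AK4, a mitochondrial adenylate kinase, rose by 1.13 (SE 0.14) and 0.76 (SE 0.14). PDK1, the kinase that holds pyruvate dehydrogenase inactive, rose by 1.20 (SE 0.18) in SW620 and had a value of 0.32 (adjusted p = 0.532) in SW480. BNIP3 and FAM162A, both linked to mitochondrial cell death, were not called in either line.

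The collagen-modifying genes rose in both lines, PLOD1 excepted. In SW480 the calls of P4HA1, P4HA2 and PLOD2 held in only 2, 0 and 2 of the 8 fits that left out 1 library. Over these fits their log2 values were 0.68 to 1.00, 0.51 to 0.59 and 1.88 to 4.14. The prolyl 4-hydroxylase subunit genes P4HA1 and P4HA2 rose by 1.47 (SE 0.16) and 1.28 (SE 0.14) in SW620, and by 0.83 (SE 0.17) and 0.55 (SE 0.13) in SW480. PLOD2 (ENSG00000152952, chromosome 3, 146069440 to 146163653, minus strand), the telopeptide lysyl hydroxylase, had 66.0 and 47.8 CPM in SW620 Tet2CD cells and 41.6 and 54.7 CPM in vector cells with TGFB1, against 14.9 and 16.6 CPM and 16.4 and 14.4 CPM with DMSO. This was a 3.36-fold rise with no overlap (adjusted p = 6.52e-05). In SW480 PLOD2 was near the limit of detection, at 0.414 and 2.88 CPM in Tet2CD cells and 3.07 and 1.90 CPM in vector cells with TGFB1, against 0 and 0.248 CPM and 0.587 and 0.256 CPM with DMSO. The groups did not overlap within a construct, with 31 counts over 4 TGFB1 libraries and 4 over 4 DMSO libraries, a ratio of 7.78 with a 95% counting interval of 2.75 to 30.3 (2.93, SE 0.59, adjusted p = 0.021). PLOD1, which hydroxylates helical lysines, had values of 0.27 and 0.25 in SW620 and SW480 and was not called.

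All 4 genes of chromatin and transcription rose in SW620 and none was called in SW480. The histone demethylase genes KDM3A and KDM4B rose by 1.82 (SE 0.26) and 1.10 (SE 0.13), BHLHE40, a basic helix-loop-helix repressor, by 1.58 (SE 0.28), and MXI1, an antagonist of MYC, by 1.25 (SE 0.21). In SW480 their values lay between 0.40 and 0.61. KDM3A, BHLHE40 and MXI1 were called there without the 3 libraries that stood apart, at 0.54, 0.66 and 0.72.

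Among the other HIF targets NDRG1 had the smallest adjusted p in SW480. NDRG1 (ENSG00000104419, chromosome 8, 133237171 to 133302022, minus strand) had 502 and 578 CPM in SW480 Tet2CD cells and 1126 and 1190 CPM in vector cells with TGFB1, against 239.7 and 252 CPM and 431 and 429.7 CPM with DMSO. TGFB1 libraries were higher in each construct, a 2.43-fold rise (adjusted p = 0.000263). In SW620 it had 366 and 219 CPM in Tet2CD cells and 275 and 281 CPM in vector cells with TGFB1, against 54.6 and 53.4 CPM and 47.7 and 52.2 CPM with DMSO, a 5.49-fold rise (adjusted p = 2.24e-08). MIR210HG (ENSG00000247095, chromosome 11, 565660 to 568457, minus strand) is a long non-coding transcript. It had 41.8 and 27.1 CPM in SW620 Tet2CD cells and 27.4 and 30.6 CPM in vector cells with TGFB1, against 5.71 and 5.13 CPM and 9.28 and 9.68 CPM with DMSO, a 4.40-fold rise without overlap. In SW480 it had 38.9 and 25.9 CPM in Tet2CD cells and 15.6 and 18.7 CPM in vector cells with TGFB1, against 10.6 and 9.93 CPM and 5.58 and 8.71 CPM with DMSO. The values were separated in each construct there as well, a 2.73-fold rise (adjusted p = 0.00395).

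CA9 (ENSG00000107159, chromosome 9, 35673856 to 35681159, plus strand) had 63.8 and 42.6 CPM in SW480 Tet2CD cells and 17.2 and 21.1 CPM in vector cells with TGFB1, against 22.0 and 13.9 CPM and 13.5 and 8.96 CPM with DMSO. The rise was 2.26-fold and cleared the threshold (1.18, SE 0.22, adjusted p = 0.0125). In SW620, where CA9 was far more abundant, it had 344 and 238 CPM in Tet2CD cells and 258 and 256 CPM in vector cells with TGFB1, against 163 and 183 CPM and 209.5 and 220.2 CPM with DMSO (0.51, SE 0.19, adjusted p = 0.0814). The libraries did not overlap, but the call failed in this fit, and it was made when the 3 SW480 libraries were left out. HILPDA, a lipid droplet protein, ANKRD37, an ankyrin repeat protein, and PPFIA4, a liprin, rose in SW620 (1.51, 1.29 and 1.77). In SW480 they had values of 0.24, 0.16 and 1.05 and were not called. WSB1, a ubiquitin ligase adaptor, was called in neither line.

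In lower glycolysis 5 of 11 genes rose in SW620 and 1 in SW480. The median of the 11 was 0.40 in SW620 and 0.35 in SW480, and the summed share of TPM of the 11 genes was 2.40% to 2.60% with TGFB1 against 1.91% to 2.14% with DMSO in SW620. In SW480 it was 1.85% to 2.47% with TGFB1 against 1.56% to 2.04% with DMSO, so that the ranges overlapped across constructs but not within either. LDHA (ENSG00000134333, chromosome 11, 18394388 to 18408425, plus strand) had 1937 and 1986 CPM in SW480 Tet2CD cells and 3136 and 2863 CPM in vector cells with TGFB1, against 1124 and 1105 CPM and 1861 and 1564 CPM with DMSO. It was 1.76-fold higher with no overlap within a construct (adjusted p = 0.000841). In SW620 it had 2716 and 2551 CPM in Tet2CD cells and 2807 and 2791 CPM in vector cells with TGFB1, against 1832 and 1749 CPM and 1999 and 2169 CPM with DMSO, a 1.41-fold rise (adjusted p = 0.00275).

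The other glycolytic genes called in SW620 were ENO2 (1.38, SE 0.15), ALDOC (1.20, SE 0.21), GPI (0.62, SE 0.16) and PGK1 (0.40, SE 0.11). With each of the 8 libraries left out in turn, GPI was called in 5 of the 8 fits and PGK1 in 1. ENO2 and ALDOC are the neuronal enolase and the brain-type aldolase, and their housekeeping partners ENO1 and ALDOA had values of 0.25 (adjusted p = 0.357) and 0.46 (adjusted p = 0.199). ENO2 accounted for 4.53% to 7.54% of the summed enolase TPM in SW620 with TGFB1, against 2.65% to 3.04% with DMSO. GAPDH had values of 0.11 in SW620 and 0.06 in SW480 and TPI1 of 0.13 and 0.36, and neither was called.

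**Figure D3:**
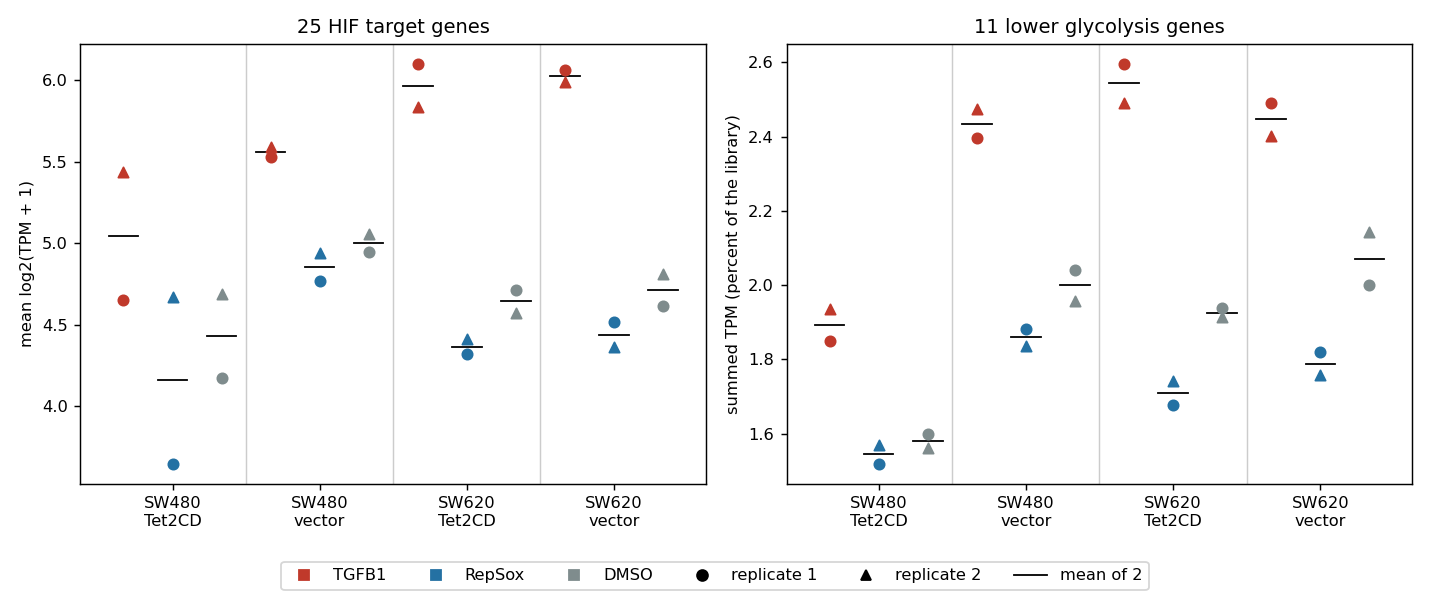
Left, the mean of log2(TPM + 1) over the 25 HIF target genes in each library, and right, the summed TPM of the 11 lower glycolysis genes as a percent of the library. Groups run from left to right by line and construct, with TGFB1 (red), RepSox (blue) and DMSO (grey). Circles are replicate 1, triangles replicate 2 and bars the mean of 2. In SW620 the HIF target mean is 5.83 to 6.10 with TGFB1 and 4.57 to 4.81 with DMSO.

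Over the 25 HIF target genes the mean of log2(TPM + 1) was 5.99 ± 0.12 with TGFB1 and 4.68 ± 0.11 with DMSO in SW620 (SD, n = 4 each). It was 5.30 ± 0.44 with TGFB1 and 4.72 ± 0.39 with DMSO in SW480 (SD, n = 4 each), where the vector libraries alone stood at 5.53 and 5.59 against 4.95 and 5.05. Other genes of the pathway, from lists of further HIF targets and further pathway genes, were read alongside. Of 30 further HIF targets tested, 20 rose and 2 fell in SW620, and 3 rose and none fell in SW480. SLC2A3, a glucose transporter (3.79), PFKFB4, a regulator of glycolysis (2.53), and DDIT4, an inhibitor of mTOR signalling (2.28), had the smallest p-values in SW620. STC2 (0.95), PFKFB4 (0.75) and DDIT4 (0.75) were the 3 that rose in SW480. Of 13 further pathway genes tested, 3 rose in SW620, among them RORA (2.29), and none was called in SW480.

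RepSox was set against the same DMSO libraries as TGFB1, so the values of each comparison are given side by side and no overlap was computed. In SW620, NDRG1 rose with RepSox (0.67, SE 0.14), and ADM (-1.29, SE 0.33), KDM4B (-0.73, SE 0.13) and LDHA (-0.38, SE 0.10) fell, against 2.01% of all genes that rose and 2.68% that fell. Their values with TGFB1 in SW620 were 2.46, 1.42, 1.10 and 0.49, so that NDRG1 was higher with either agent. In SW480 none of the 40 genes was called with RepSox by edgeR or by DESeq2, nor was any gene of the 15302 by edgeR (0.0%). At an unadjusted p under 0.05 there were 3 of the 40 and 433 of all genes in that line.

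NDRG1 had 70.3 and 73.9 CPM in SW620 Tet2CD cells and 96.7 and 92.6 CPM in vector cells with RepSox, against 54.6 and 53.4 CPM and 47.7 and 52.2 CPM with DMSO (adjusted p = 0.00823). All 4 RepSox libraries lay above all 4 DMSO libraries. LDHA had 1449 and 1498 CPM in SW620 Tet2CD cells and 1553 and 1448 CPM in vector cells with RepSox, against 1832 and 1749 CPM and 1999 and 2169 CPM with DMSO (adjusted p = 0.0379). Here the RepSox libraries were the lower ones without overlap. KDM4B had 32.8 and 30.1 CPM in Tet2CD cells and 37.0 and 35.5 CPM in vector cells with RepSox, against 60.8 and 51.1 CPM and 55.4 and 56.3 CPM with DMSO (adjusted p = 0.00327). It was likewise separated, and alone of the 4 it was called whichever 1 library was left out. ADM had 1.49 and 2.51 CPM in Tet2CD cells and 1.03 and 1.42 CPM in vector cells with RepSox, against 4.47 and 3.73 CPM and 2.48 and 4.69 CPM with DMSO (adjusted p = 0.0316), a separated but very low level.

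RepSox and DMSO libraries of SW620 did not overlap within either construct for 3 genes that were higher (15.0% of all genes) and 13 that were lower (13.3%) with RepSox, among them VEGFA at -0.22 (adjusted p = 0.742) and CA9 at -0.20 (adjusted p = 0.698). EPAS1 (0.35, adjusted p = 0.872) and HIF1A (0.08, adjusted p = 0.985) overlapped. In SW480 the values of HIF1A, EPAS1, VEGFA, CA9, NDRG1 and LDHA were -0.35, 0.04, -0.22, 0.19, -0.11 and -0.32. The SW620 count of 4 was 12 without the 3 SW480 libraries and 14 with the 12 SW620 libraries alone, while the share of all genes called was 4.69%, 15.4% and 20.5% in these 3 fits. It was 1 or 2 when any 1 of the 8 SW620 RepSox and DMSO libraries was left out, 1 without Tet2CD DMSO replicate 1 or 2 or vector RepSox replicate 1 and 2 without each of the other 5.

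**Figure D4:**
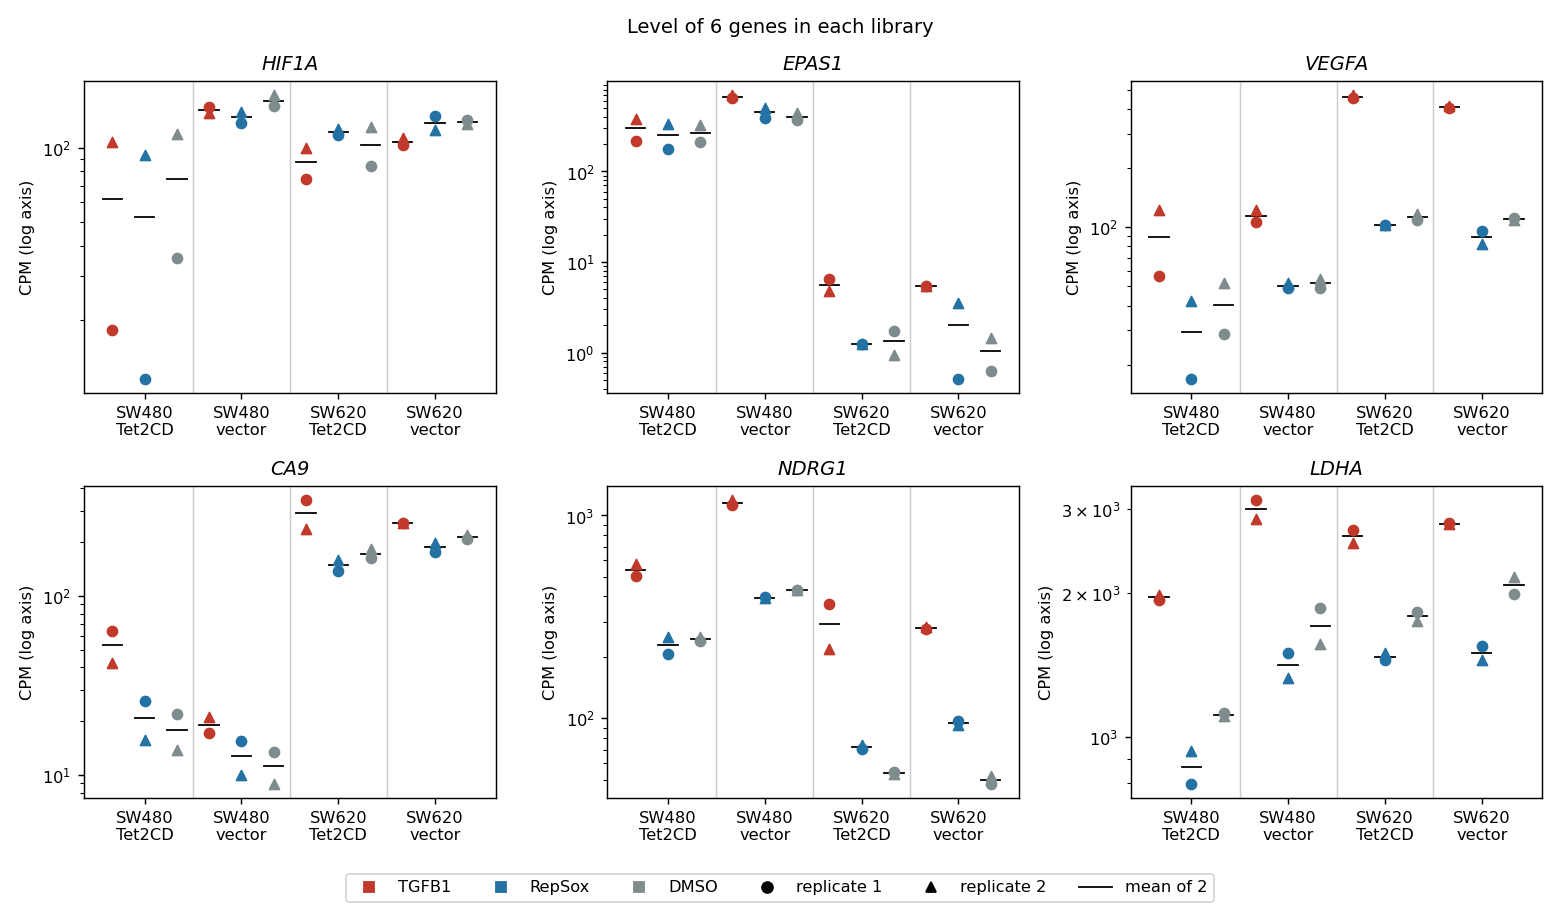
Level of HIF1A, EPAS1, VEGFA, CA9, NDRG1 and LDHA in each library, in CPM on a log axis. Groups run from left to right by line and construct, with TGFB1 (red), RepSox (blue) and DMSO (grey), circles for replicate 1, triangles for replicate 2 and bars for the mean of 2. HIF1A in SW480 Tet2CD cells is at 11.5 to 35.7 CPM in the circles and 93.1 to 114 CPM in the triangles, and EPAS1 is below 7 CPM in all SW620 libraries.

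Tet2CD was compared with the vector in each line, with DMSO alone (2 against 2 libraries) and averaged over the 3 treatments (6 against 6). The SW480 Tet2CD libraries of replicate 1 deviated together over the treatments, so the averaged p-values of SW480 may be too small. In SW480 with DMSO, ALDOC rose (1.08, SE 0.31) and NDRG1 (-0.81, SE 0.19), PGK1 (-0.61, SE 0.16) and LDHA (-0.62, SE 0.14) fell, 1 and 3 of the 40 against 4.19% and 2.57% of all genes (6.76% in either direction). Averaged over treatments, 6 rose and 18 fell, against 29.2% and 25.3% of all genes, so that 24 of 40 were called where 54.5% of all genes were. In SW620 none of the 40 was called with DMSO (0.0261% of all genes) or on average (0.314% of all genes, 0.0392% lower) by edgeR or DESeq2. At an unadjusted p under 0.05 there were 3 of the 40 in each of these SW620 comparisons, against 416 of all 15302 genes with DMSO and 1100 on average. The median of the 40 in SW480 was -0.30 with DMSO and -0.29 averaged over treatments, against 0.03 for all genes in each, and in SW620 it was -0.15 and -0.08, against 0.0 for all genes.

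The 4 DMSO calls of SW480 depended on single libraries. ALDOC had 67.9 and 52.9 CPM in Tet2CD cells and 27.6 and 29.2 CPM in vector cells, NDRG1 239.7 and 252 CPM against 431 and 429.7 CPM, and LDHA 1124 and 1105 CPM against 1861 and 1564 CPM. PGK1, which makes the first ATP of lower glycolysis, had 497 and 539.7 CPM in Tet2CD cells and 817 and 761 CPM in vector cells. None of these groups overlapped. With relative log expression scaling 4 fell and none rose, against 2.69% and 4.16% of all genes. With the SW480 libraries alone the count was 0, in a fit that called 1.38% of all genes, against 6.76% in the main fit. The calls changed with the library left out. Each such fit has 1 library in a group, so only its log2 values are given. Over these 4 fits they ran from 0.88 to 1.22 for ALDOC and from -0.88 to -0.79 for NDRG1. For LDHA they ran from -0.76 to -0.51 and for PGK1 from -0.70 to -0.56.

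Averaged over treatments, all 3 HIF subunit genes fell in SW480. HIF1A ran from 11.5 to 114 CPM (median 64.4) in the 6 Tet2CD libraries and from 126 to 163 CPM (median 143) in the 6 vector libraries (-1.16, SE 0.39, adjusted p = 0.0188). The 3 lowest were the replicate 1 libraries at 35.7, 18.2 and 11.5 CPM with DMSO, TGFB1 and RepSox. Without them HIF1A still differed, at -0.48 (adjusted p = 0.00179). EPAS1 ran from 177 to 383 CPM (median 270.1) in Tet2CD cells and from 369.7 to 695 CPM (median 472) in vector cells (-0.86, SE 0.20, adjusted p = 0.00277), and it was -0.54 without the 3. ARNT, at -0.63, and VHL, at -0.73, lost the call without them, with values of -0.26 and -0.22.

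Of the HIF targets, those that fell in SW480 were ADM, BNIP3L, PDK1, AK4, P4HA1, P4HA2, KDM3A, BHLHE40, MXI1, NDRG1 and HILPDA. NDRG1 ran from 207 to 578 CPM (median 252) in Tet2CD cells and from 390.1 to 1190 CPM (median 430.4) in vector cells, and each treatment separated (-0.90, SE 0.11, adjusted p = 1.17e-05). BHLHE40 ran from 55.7 to 348 CPM (median 205) in Tet2CD cells and from 272 to 589 CPM (median 331) in vector cells (-0.96, SE 0.23). PDK1 ran from 13.9 to 30.8 CPM (median 16.4) against 24.2 to 52.5 CPM (median 36.5) in vector cells (-0.90, SE 0.16). AK4 ran from 50.3 to 117 CPM (median 73.4) against 94.7 to 229 CPM (median 109) in vector cells (-0.79, SE 0.11). These 4 genes were also called without the 3 libraries, at -0.82, -0.55, -0.65 and -0.63. ADM, P4HA1, P4HA2, KDM3A and HILPDA were called too, at -0.77, -0.54, -0.27, -0.37 and -0.60, although P4HA2 was called in 4 of the 12 fits that leave out 1 library. MXI1 and BNIP3L were not, at -0.29 and -0.23. VEGFA ran from 17.0 to 122 CPM (median 47.0) in Tet2CD cells and from 48.8 to 123 CPM (median 53.5) in vector cells, and its value of -0.47 (adjusted p = 0.0518) was -0.08 without the 3.

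The HIF targets that rose in SW480 with Tet2CD were CA9, PLOD1, MIR210HG and EGLN3. CA9 ran from 13.9 to 63.8 CPM (median 24.0) in Tet2CD cells and from 8.96 to 21.1 CPM (median 14.5) in vector cells, separated within each treatment (0.93, SE 0.18, adjusted p = 0.000687). PLOD1 ran from 158 to 296 CPM (median 195) in Tet2CD cells and from 112 to 135 CPM (median 122) in vector cells (0.76, SE 0.13), the only one of these whose 6 and 6 libraries did not overlap at all. MIR210HG ran from 9.93 to 38.9 CPM (median 15.4) in Tet2CD cells and from 5.58 to 18.7 CPM (median 9.06) in vector cells (0.75, SE 0.18). EGLN3 ran from 54.6 to 149.5 CPM (median 62.5) against 38.4 to 85.5 CPM (median 50.4) in vector cells (0.54, SE 0.11). All 4 kept the call without the 3 libraries, at 0.59, 0.46, 0.49 and 0.46. Within each treatment 5 of the 40 genes were higher and 15 lower in Tet2CD cells without overlap, against 16.6% and 17.3% of all genes.

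In lower glycolysis the summed share of TPM of the 11 genes was lower with Tet2CD in SW480 under every treatment. It was 1.60% and 1.56% in Tet2CD cells against 2.04% and 1.96% in vector cells with DMSO, 1.85% and 1.94% against 2.40% and 2.47% in vector cells with TGFB1, and 1.52% and 1.57% against 1.88% and 1.84% in vector cells with RepSox. Both Tet2CD libraries lay below both vector libraries in each treatment on this measure, whereas the calls of single genes in the fit changed with the 3 libraries. With them, ALDOC (1.18, SE 0.18) and ALDOA (0.55, SE 0.19) rose, and PGK1 (-0.77, SE 0.09), LDHA (-0.65, SE 0.08) and PGAM1 (-0.25, SE 0.08) fell. Without them 8 of the 11 genes were lower in Tet2CD cells past the threshold, in a fit that called 18.1% of all genes higher and 19.9% lower: GPI (-0.47), TPI1 (-0.27), GAPDH (-0.21), PGK1 (-0.66), PGAM1 (-0.30), ENO1 (-0.56), PKM (-0.39) and LDHA (-0.62). ALDOC remained higher (0.80), ENO2 was at 0.04 and ALDOA turned to -0.04 (adjusted p = 0.778). ALDOA ran from 933 to 2288 CPM (median 1347) in Tet2CD cells and from 792 to 1371 CPM (median 986) in vector cells, and its TPM ran from 1448 to 2080 in Tet2CD cells and from 1356 to 2309 in vector cells, which overlap. GAPDH had 7611, 9261 and 11259 CPM in replicate 1 with DMSO, TGFB1 and RepSox, above the 4773 to 6278 CPM of the other 21 libraries. In TPM the same 3 libraries had 8080, 8889 and 8369, within the 6702 to 9103 TPM of the others, so that the level of GAPDH in them depended on the scaling. ALDOC ran from 50.5 to 122 CPM (median 69.3) in Tet2CD cells and from 27.5 to 45.2 CPM (median 31.1) in vector cells, with no overlap. LDHA ran from 799 to 1986 CPM (median 1115) in Tet2CD cells and from 1330.0 to 3136 CPM (median 1712) in vector cells. It did not overlap within a treatment.

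The GC content of the gene moved with these values. The 18 genes that fell had a median GC content of 46.83%, the 6 that rose 58.42%, the 16 not called 56.12% and all genes tested 50.14%, and the 3 libraries had the highest mean GC content. With an offset for GC content 5 rose and 21 fell, in a fit that called 25.9% of all genes higher and 25.5% lower. In that fit HIF1A was at -0.86, NDRG1 at -1.11, LDHA at -0.42 and ALDOC at 0.93. Of 30 further HIF targets tested, 6 rose and 15 fell in SW480 with Tet2CD on average. CA12, another surface carbonic anhydrase (5.72), and NDUFA4L2, a mitochondrial complex subunit homologue (4.94), had the smallest p-values among those that rose, and DDIT4 (-1.42), STC2 (-1.02) and SLC2A3 (-0.97) among those that fell. Of 13 further pathway genes 3 rose, such as ELOB (1.40), and 7 fell, such as CITED2 (-0.79). In SW620 none of these 2 lists was called on average.

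**Figure D5:**
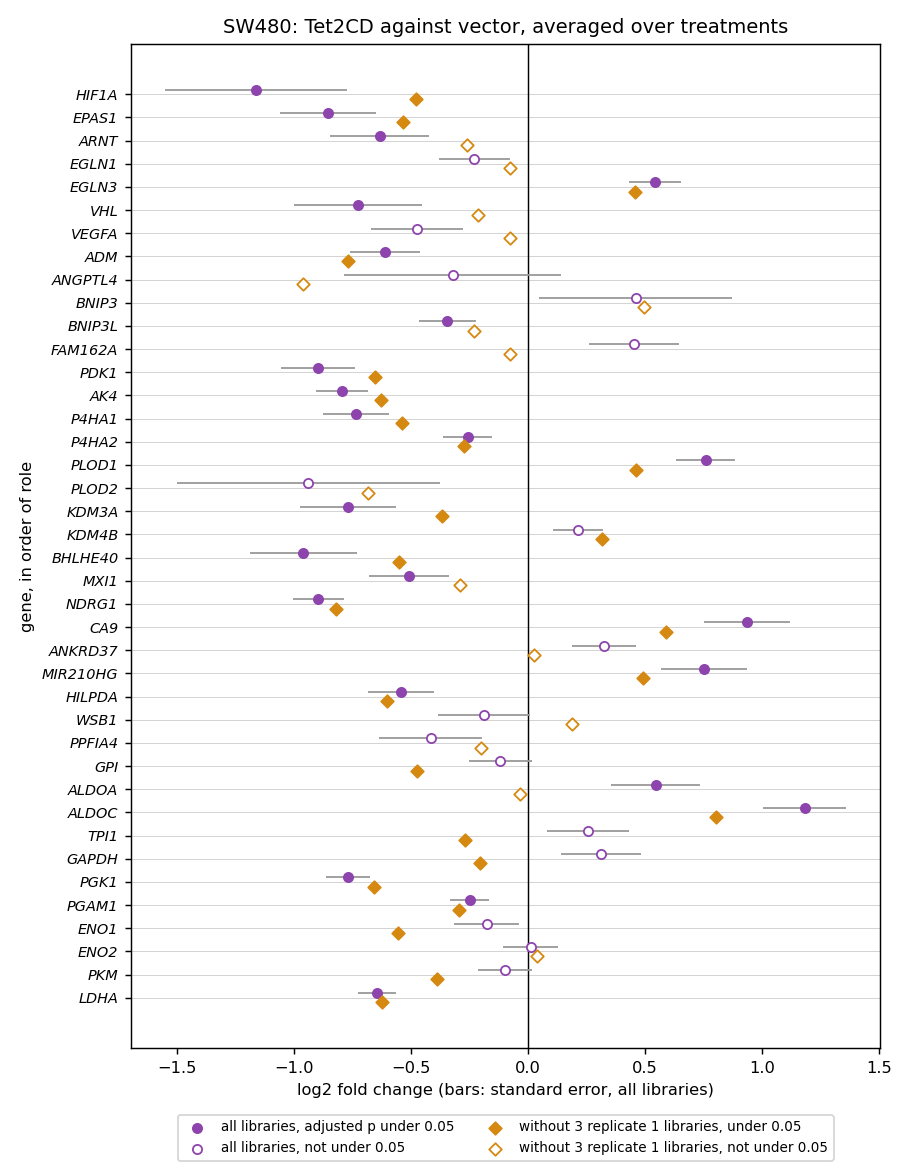
Log2 fold change of Tet2CD over vector in SW480, averaged over the 3 treatments, for each of the 40 genes in order of role. Purple circles use all 24 libraries, with standard errors as bars, and orange diamonds leave out the 3 SW480 Tet2CD replicate 1 libraries. Filled symbols have an adjusted p under 0.05. Circles and diamonds of NDRG1 (-0.90 and -0.82) and LDHA (-0.65 and -0.62) lie close together, while those of HIF1A (-1.16 and -0.48) and ALDOA (0.55 and -0.04) do not.

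In SW620 the values of Tet2CD against vector, averaged over treatments, were -0.24 for HIF1A, -0.05 for EPAS1, 0.14 for VEGFA, -0.16 for CA9, -0.07 for NDRG1 and -0.11 for LDHA. HIF1A ran from 74.7 to 121 CPM (median 106) in Tet2CD cells and from 103 to 134 CPM (median 121) in vector cells, which overlapped widely across treatments. Within a treatment the Tet2CD libraries of HIF1A were the lower ones with DMSO and with TGFB1, and overlapped the vector libraries with RepSox. ANKRD37 stood at -0.65 (adjusted p = 0.112), with 7.21 to 28.8 CPM (median 9.99) in Tet2CD cells and 10.3 to 41.9 CPM (median 17.6) in vector cells. The 2 ranges overlapped, but within each treatment the Tet2CD libraries were the lower ones. EGLN3 stood at 0.45 (adjusted p = 0.194). Without the 3 SW480 libraries EGLN3, ANKRD37 and WSB1 were called (2.96% of all genes), and with the SW620 libraries alone 4 genes were (4.6%).

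The lines differed in 19 of the 40 genes, 12 higher and 7 lower in SW480 than in SW620, compared in vector cells with DMSO (2 against 2 libraries). Of the 15302 genes tested, 17.8% had a higher level in SW480 and 16.8% a lower one. EPAS1 had 369.7 and 437 CPM in SW480, against 0.619 and 1.47 CPM in SW620, from 2964 and 7 counts, a ratio of 385 with a 95% counting interval of 186 to 958 (8.53, SE 0.58, adjusted p = 1.02e-08). HIF1A had 147 and 163 CPM in SW480 and 130 and 124 CPM in SW620 and was not called (0.29, SE 0.66). In TPM, which allows genes to be compared, EPAS1 (151) stood above HIF1A (102) in SW480, whereas in SW620 it was at 1.09 against 83.2.

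NDRG1 had 431 and 429.7 CPM in SW480, against 47.7 and 52.2 CPM in SW620, 8.61-fold higher (3.11, SE 0.20). ADM had 62.3 and 53.0 CPM in SW480, against 2.48 and 4.69 CPM in SW620 (3.99, SE 0.33). EGLN3 (1.67, SE 0.21), P4HA2 (1.83, SE 0.19), ANKRD37 (1.43, SE 0.25), AK4 (0.94), EGLN1 (0.89), ENO2 (0.76), BNIP3L (0.74) and HILPDA (0.69) were also higher in SW480. ANGPTL4 had 19 counts in SW480 and 1 in SW620, a ratio of 17.3 with a 95% counting interval of 2.74 to 717. P4HA2 had 89.6 and 92.2 CPM in SW480, against 25.4 and 25.8 CPM in SW620.

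On the other side, CA9 had 13.5 and 8.96 CPM in SW480, against 209.5 and 220.2 CPM in SW620 (-4.26, SE 0.32, adjusted p = 3.21e-08). PLOD2 had 3 counts in SW480 and 102 in SW620, a ratio of 0.0267 with a 95% counting interval of 0.0054 to 0.0803. VEGFA had 49.0 and 54.8 CPM in SW480, against 112 and 109 CPM in SW620 (-1.09, SE 0.34, adjusted p = 0.0187). VHL (26.4 and 31.5 CPM in SW480, against 89.4 and 89.1 CPM in SW620) was lower in SW480 too, at -1.62. WSB1 (47.0 and 42.5 CPM in SW480, against 100.3 and 101 CPM in SW620), P4HA1 (54.6 and 52.2 CPM, against 111 and 119 CPM in SW620) and PGK1 had values of -1.17, -1.11 and -1.06. VEGFA, VHL and WSB1 were called in 0 of the 4 fits that leave out 1 of these libraries. HILPDA was called in 1 of the 4, BNIP3L, EGLN1 and ANGPTL4 in 2 each and ENO2 in 3. LDHA had 1861 and 1564 CPM in SW480, against 1999 and 2169 CPM in SW620, and was not called (-0.28, SE 0.14, adjusted p = 0.13). Of the 19 calls 11 held without any 1 of the 4 libraries, and the count was 12 without SW620 replicate 1.

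The TGFB1 effect differed between the lines for 6 of the 40 genes, all with the smaller rise in SW480, against 0.902% of all genes with a larger and 1.17% with a smaller value in SW480 (2.07% in either direction). They were EGLN3 (-2.18, SE 0.20, adjusted p = 3.17e-05), HILPDA (-1.26, SE 0.24), NDRG1 (-1.17, SE 0.19), EGLN1 (-1.17, SE 0.27), ANKRD37 (-1.14, SE 0.25) and ENO2 (-1.03, SE 0.21). Their effects in SW480 and SW620 were 0.94 and 3.13 for EGLN3, 0.24 and 1.51 for HILPDA, 1.28 and 2.46 for NDRG1, 0.12 and 1.29 for EGLN1, 0.16 and 1.29 for ANKRD37, and 0.35 and 1.38 for ENO2. ANKRD37 had 28.8 and 24.7 CPM in SW620 Tet2CD cells and 41.9 and 37.3 CPM in vector cells with TGFB1, against 10.4 and 9.56 CPM and 16.7 and 18.5 CPM with DMSO, without overlap within a construct. In SW480 vector cells ANKRD37 was instead lower with TGFB1 (39.4 and 45.5 CPM) than with DMSO (47.3 and 47.4 CPM). In SW480 Tet2CD cells it had 84.1 and 56.4 CPM with TGFB1 against 60.8 and 40.7 CPM with DMSO, higher in each replicate but overlapping. ENO2 had 266 and 148 CPM in SW620 Tet2CD cells and 184 and 172 CPM in vector cells with TGFB1, against 75.7 and 73.9 CPM and 70.3 and 74.5 CPM with DMSO. EGLN1 had 60.3 and 53.9 CPM in SW620 Tet2CD cells and 65.9 and 73.6 CPM in vector cells with TGFB1, against 27.3 and 19.1 CPM and 25.7 and 32.0 CPM with DMSO. HILPDA had 31.8 and 26.4 CPM in SW620 Tet2CD cells and 43.3 and 39.6 CPM in vector cells with TGFB1, against 14.9 and 11.7 CPM and 8.67 and 13.8 CPM with DMSO. In none of these 4 genes did the SW620 groups overlap within a construct. Of the 16 fits that leave out 1 library, the difference was called in 2 for EGLN1, 7 for ANKRD37, 9 for ENO2 and 15 for HILPDA. For LDHA (0.32, adjusted p = 0.309), CA9 (0.67, adjusted p = 0.3) and VEGFA (-0.82, adjusted p = 0.263) the difference did not pass. The count was 17 without the 3 libraries, 1 larger and 16 smaller in SW480, where the shares of all genes were 4.83% and 3.58%, and 10 without Tet2CD TGFB1 replicate 2 of SW480. It was 2 without SW620 Tet2CD DMSO replicate 2, and 3 without SW480 vector DMSO replicate 1, SW480 vector TGFB1 replicate 1, SW620 Tet2CD DMSO replicate 1, SW620 vector DMSO replicate 1 or 2, or SW620 vector TGFB1 replicate 1.

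The Tet2CD effect, averaged over treatments, differed between the lines for 11 of the 40 genes, 5 with a higher and 6 with a lower value in SW480, against 10.2% and 9.93% of all genes (20.1% in either direction). Those with a higher value were ALDOC (1.26, SE 0.25), MIR210HG (1.10, SE 0.26), CA9 (1.09, SE 0.24), ANKRD37 (0.98, SE 0.21) and PLOD1 (0.59, SE 0.18). Those with a lower value were ADM (-0.88, SE 0.29), AK4 (-0.84, SE 0.16), NDRG1 (-0.83, SE 0.15), PDK1 (-0.71, SE 0.21), PGK1 (-0.59, SE 0.13) and LDHA (-0.54, SE 0.11). ALDOC, for example, ran from 25.6 to 135 CPM (median 40.8) in SW620 Tet2CD cells and from 28.4 to 91.1 CPM (median 45.5) in SW620 vector cells, with wide overlap, whereas its SW480 groups were separate. HIF1A had a difference of -0.93 (adjusted p = 0.218). For fits with 1 library left out, the counts below come without the share of all genes. They cannot set the 40 genes apart from the rest. The count was 17 without the 3 libraries (19.5% of all genes), with PLOD1 no longer called, 21 without Tet2CD RepSox replicate 2 and 22 without Tet2CD TGFB1 replicate 2 of SW480.

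The RepSox effect differed between the lines for none of the 40 genes by edgeR (1.03% of all genes) and for 2 by DESeq2. At an unadjusted p under 0.05 there were 7 of the 40 and 1716 of all 15302 genes. Whether Tet2CD changed the response to TGFB1 or RepSox was tested within each line. None of the 40 was called in these 4 comparisons by edgeR or DESeq2, where 0.0131% of all genes were called for TGFB1 in SW480 and 0.0% in the other 3. At an unadjusted p under 0.05 there were 0 of the 40 for TGFB1 and 0 for RepSox in SW480, and 2 and 1 in SW620. Over all genes there were 741 and 294 in SW480, and 201 and 188 in SW620.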

How the data were processed

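Total RNA of 24 libraries (12 groups of 2) was sequenced from TruSeq libraries. The authors mapped reads with Bowtie and quantified them with RSEM, and deposited for each library a table of genes with the expected count, an estimate of fragments per gene, and TPM, which scales for gene length and library size. The submitters' notes name the mouse build mm10 whereas the identifiers are human, and the study's text differs from the labels on the ligand and its duration. The labels were followed here. FPKM columns were not used. In 22 of the 24 tables the effective gene length equalled the length, so TPM in the remaining tables rests on a different length correction. Its part in the TPM values was not tested. Identifiers were matched to GENCODE 29 (GRCh38) for 32777 of 33382 genes. Expected counts were rounded, filtered with filterByExpr (15302 genes), scaled by TMM and fitted with edgeR 4.0.16 (quasi-likelihood, R 4.3.3, limma 3.58.1) as 12 group means with 12 residual degrees of freedom and a common biological coefficient of variation of 21.3%. Adjusted p-values are Benjamini-Hochberg over all genes tested, for 16 comparisons, at 0.05. CPM values use TMM-scaled totals (TET2: the unscaled total), and totals were 2146123 to 4410567 counts per library (median 3653712) before scaling. Intervals cover counting error only. The alternatives were DESeq2 1.42.0, relative log expression scaling, no low-count filter, 1 line alone, a GC-content offset, a term for library number, each library left out, and the 3 libraries that stand apart left out, which leaves 1 Tet2CD library per treatment in SW480, taken to vary like the other groups. The scripts were tested on simulated data. Library values were given for up to 6 genes that rose and 6 that fell per comparison by size of change (for differences between lines, in part as ranges or in 1 line) and for HIF1A, EPAS1, VEGFA, CA9, NDRG1 and LDHA, and up to 3 genes each way by smallest p from the further lists. Other genes with library values were added after their values were seen. The 40 genes, the lists and the 3 libraries were chosen with earlier results of these data known.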

Additional observations from a re-analysis of the deposited data

Results flagged for a closer look

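Each result here is a difference between the lines in the effect of an agent, tested as an interaction with edgeR's quasi-likelihood test, and each had an adjusted p under 0.05. For TGFB1 the effect in SW480 minus that in SW620, on the log2 scale, was -2.18 for EGLN3, -1.26 for HILPDA, -1.17 for NDRG1, -1.17 for EGLN1, -1.14 for ANKRD37 and -1.03 for ENO2. For Tet2CD it was 1.26 for ALDOC, 1.10 for MIR210HG, 1.09 for CA9, 0.98 for ANKRD37 and 0.59 for PLOD1, and it was -0.88 for ADM, -0.84 for AK4, -0.83 for NDRG1, -0.71 for PDK1, -0.59 for PGK1 and -0.54 for LDHA. The SW480 Tet2CD values include the 3 libraries with a high share of ribosomal protein counts, and the part of that difference in these values was tested only by leaving the 3 out, after which 10 of these 11 Tet2CD differences passed and that of PLOD1 did not.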

How the results depend on the processing

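A count given without the share of all genes in its fit cannot set the 40 genes apart from the rest. Counts of called genes among the 40 changed by over 1.5 times as follows. Without the 3 SW480 Tet2CD replicate 1 libraries the count was 9 in place of 4 for Tet2CD in SW480 with DMSO, 3 in place of 0 for Tet2CD in SW620 on average, 19 in place of 11 for TGFB1 in SW480, 12 in place of 4 for RepSox in SW620, and 17, 17 and 2 in place of 11, 6 and 0 for the differences between lines in the Tet2CD, TGFB1 and RepSox effects. With 1 line alone it was 0, 4, 0 and 14 for the first 4 of these. DESeq2 gave 7 for Tet2CD in SW480 with DMSO and 11 and 2 for the TGFB1 and RepSox differences. Without the low-count filter it was 7 for Tet2CD in SW480 with DMSO, and with the GC-content offset 1 for Tet2CD in SW620 on average and 10 and 1 for the TGFB1 and RepSox differences. ALDOA turned to -0.035 for Tet2CD in SW480 without the 3 libraries. The cause was not tested. As medians in place of means, the lower glycolysis changes were -0.404 for RepSox in SW480 (mean -0.149), -0.748 for Tet2CD in SW480 (mean -0.375), 0.416 for TGFB1 in SW620 (mean 0.552) and -0.014 for RepSox in SW620 (mean -0.169). Leaving out 1 library at a time gave 0 to 5 for Tet2CD in SW480 with DMSO, 18 to 30 on average, 4 to 11 for TGFB1 in SW480, 23 to 25 in SW620, 1 to 2 for RepSox in SW620, 12 to 15 between lines, and 8 to 22, 2 to 10 and 0 to 2 for the Tet2CD, TGFB1 and RepSox differences. It gave 0 to 0 for Tet2CD in SW620 with DMSO and on average, for RepSox in SW480 and for the 4 tests of Tet2CD on the responses.

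The labels share no replicate numbers. A replicate block by library number moved no count by over 1.5 times (5 in place of 4 for Tet2CD in SW480 with DMSO, 9 in place of 6 for the TGFB1 difference). The deviations of libraries 21 to 32 and 33 to 44 correlated at -0.274 to 0.754 over 66 pairs of groups. For the 3 pairs within the SW480 Tet2CD groups this was 0.65 to 0.754, and for the 36 pairs without such a group -0.135 to 0.258. The numbers were not taken to pair the libraries. The SW480 Tet2CD tests averaged over treatments, and the difference between lines built on them, took these libraries as independent. Their p-values may therefore be too small. Among values that passed no test 15 changed sign under some setting. With 2 libraries per group, and 2146123 counts in the shallowest, levels such as those of PLOD2 and ANGPTL4 rest on few counts.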
